A study of Mus musculus with 20 samples.

Results

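The 10 chemokine genes described here are Cxcl1, Cxcl2, Cxcl5, Cxcl10, Cxcl12, Cxcl16, Ccl2, Ccl7, Ccl20 and Cx3cl1, taken from the 35240 gene symbols of a time course in mouse colonic organoids (colonoids). They were chosen by symbol, with earlier results of these data known. The values of their transcripts were summed per gene, and all 10 were among the 13539 genes tested. RNA was sequenced from 20 libraries, namely WT and Tnfr2-/- cultures collected on day 1, 2, 3, 5 or 7 after the last passage (DPP), with 2 mice of each genotype and 1 library for each mouse and day. Per the study's methods, WT mice were C57BL/6, and Tnfr2-/- mice (B6.129S2-Tnfrsf1btm1Mwm/J) lacked functional Tnfrsf1b, the gene for TNF receptor 2, in the whole body, so that the deletion was also carried by any cell of the cultures that was not epithelial. Colonic crypts of both genotypes had been embedded in Matrigel under organoid growth medium and passaged 5 times before seeding through a mesh, and the mice of the study's cultures were 8 weeks old and of both sexes.

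Chemokines are small secreted or membrane-bound proteins that attract leukocytes through G protein-coupled receptors, and they are named by the spacing of their first cysteines as CXC, CC and CX3C. Cxcl1, Cxcl2 and Cxcl5 act through Cxcr2 and attract neutrophils, whereas Ccl2 and Ccl7 act through Ccr2 and draw monocytes out of the blood. Cxcl10 is induced by interferons and binds Cxcr3 on activated T cells, and Ccl20, made by intestinal epithelium, binds Ccr6 on lymphocytes and dendritic cells. Cxcl12 binds Cxcr4 and is scavenged by Ackr3. Cxcl16 and Cx3cl1 are made as membrane-anchored proteins, are shed by Adam10 and Adam17, and bind Cxcr6 and Cx3cr1. In the gut several of these genes, among them Cxcl1, Cxcl2, Ccl2 and Ccl20, are known targets of NF-kappaB, which is activated by TNF and interleukin 1 in epithelial cells and in fibroblasts, whereas Cxcl12 is largely constitutive.

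Several of the genes are close neighbours (GRCm38 coordinates). Ccl2 (ENSMUSG00000035385, chr11:82035571-82037453) and Ccl7 (ENSMUSG00000035373, chr11:82045712-82047525) lie on the plus strand of chromosome 11 with 8.26 kb between them. Cxcl1 (ENSMUSG00000029380, chr5:90891241-90893115) and Cxcl2 (ENSMUSG00000058427, chr5:90903871-90905938) lie on the plus strand of chromosome 5, 10.8 kb apart, and Cxcl5 (ENSMUSG00000029371, chr5:90759360-90761624) ends 129.6 kb before Cxcl1. Cxcl16 (ENSMUSG00000018920) is at chr11:70453983-70459984 on the minus strand. Cxcl10 is at chr5:92346638-92348889 (minus), Cxcl12 at chr6:117168535-117181367 (plus), Ccl20 at chr1:83116766-83119167 (plus) and Cx3cl1 at chr8:94772009-94782427 (plus).

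RefSeq promoter windows of GRCm38.p6, running from 250 bases before to 50 after an annotated start, were at hand for 6 of the 10 genes, and not for Cxcl5, Cxcl16, Ccl2 and Ccl7. They were searched on both strands for the NF-kappaB site consensus (kappaB), an interferon response core (GAAANNGAA), AP-1 (TGANTCA) and TATAAA. Windows of Cxcl1, Cxcl2, Cxcl10 and Ccl20 held a kappaB match, and those of Cxcl12 and Cx3cl1 held none, against 8.46% of 32851 windows of the same length in the genome. The 220 bases before the RefSeq start of these 4 genes are shown because the 2 neighbours Cxcl1 and Cxcl2 carry the same match and Cxcl10 carries 2 kappaB stretches and the interferon core. Capitals mark kappaB matches, with overlapping matches joined, and, at the start of the Cxcl10 window, the interferon core.
Cxcl1, chr5:90891025-90891244, plus strand: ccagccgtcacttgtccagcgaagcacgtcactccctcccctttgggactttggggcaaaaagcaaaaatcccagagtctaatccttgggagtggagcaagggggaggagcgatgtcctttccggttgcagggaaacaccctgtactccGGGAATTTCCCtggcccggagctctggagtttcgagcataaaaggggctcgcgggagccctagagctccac
Cxcl2, chr5:90903679-90903898, plus strand: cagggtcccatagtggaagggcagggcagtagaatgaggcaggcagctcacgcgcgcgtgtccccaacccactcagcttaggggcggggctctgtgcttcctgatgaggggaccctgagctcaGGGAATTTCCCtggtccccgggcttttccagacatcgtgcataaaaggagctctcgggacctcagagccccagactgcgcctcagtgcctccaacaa
Cxcl10, chr5:92348890-92349109, minus strand: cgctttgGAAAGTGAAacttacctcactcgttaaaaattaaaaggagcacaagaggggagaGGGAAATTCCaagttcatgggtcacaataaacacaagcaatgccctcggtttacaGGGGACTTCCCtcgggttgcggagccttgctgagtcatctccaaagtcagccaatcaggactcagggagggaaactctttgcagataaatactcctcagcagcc
Ccl20, chr1:83116546-83116765, plus strand: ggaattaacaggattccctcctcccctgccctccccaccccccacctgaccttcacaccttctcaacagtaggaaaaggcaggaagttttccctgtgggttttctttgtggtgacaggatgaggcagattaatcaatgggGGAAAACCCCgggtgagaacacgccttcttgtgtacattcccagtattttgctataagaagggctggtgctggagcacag
Within the 220 bases shown, the longest run shared by Cxcl1 and Cxcl2 was 14 bases, gggaatttccctgg, and it begins with the kappaB match, at -71 from the start of Cxcl1 and -97 from that of Cxcl2. Their whole windows also shared a longer run, of 20 bases, after the start. In Cxcl10 the matches began at -159 and -104, with the interferon core at -213 (8.56% of windows) and an AP-1 match at -74 (7.81% of windows), and in Ccl20 the match began at -80. In Cx3cl1 the window held TATAAA at -6 (13.6% of windows). These are matches of letters, and no binding was measured.

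Values are normalised expression, that is TPM (transcript abundance corrected for transcript length) divided by a size factor per library, so that levels of different genes can be compared. Read depth per library is not in the table. Between 13007 and 13469 genes reached a value of 1 in a library, and the 2 mice of a group correlated at a Pearson r of 0.923 to 0.956 across genes. The targeted gene, Tnfrsf1b, ranged from 11.1 to 21.9 in WT (median 14.3, n = 10) and from 2.71 to 11.5 in Tnfr2-/- libraries (median 4.85, n = 10). In Tnfr2-/- cultures its signal was 2.71 to 5.52 at 1 to 3 DPP and 7.59 to 11.5 at 5 and 7 DPP, a rise of 1.02 on the log2 scale (adjusted p 0.00191), against 11.1 to 19.0 and 13.6 to 21.9 in WT. Its difference between genotypes was -1.72 at the early days (adjusted p 1.16e-04) and -0.79 at the late days (adjusted p 0.0323), and it was not called at 5 DPP or 7 DPP taken singly (adjusted p 0.211 and 0.203). The labelled epithelium was present: all 10 epithelial markers were tested, and their summed level was 11917 to 19791 in WT and 13600 to 20380 in Tnfr2-/- libraries. Fibroblast RNA was present too, and all 12 fibroblast markers were tested, with sums of 1352 to 4637 in WT and 3307 to 8916 in Tnfr2-/- libraries. In these bulk samples fewer cells of a type and less RNA per cell cannot be told apart. Of 12 immune markers, 4 were tested, the pan-leukocyte gene Ptprc reached at most 0.753, Cpa3 and Nkg7 were listed at 0 everywhere, and the list's sum was made up mainly of Ly6g (74.8 to 900.1). Of 6 endothelial markers 2 were tested, and their sum reached at most 5.86.

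The levels of the 10 genes spanned a wide range. Over all 20 libraries the mean was 337 ± 264 (SD, n = 20) for Ccl2, which ranked 422 of the 13539 genes, 138 ± 35.7 for Cxcl16 and 104 ± 73.8 for Ccl7. They were followed by Cxcl1 (58.9 ± 32.6), Cxcl5 (43.3 ± 21.8), Cxcl2 (16.3 ± 16.5), Cx3cl1 (15.5 ± 7.60) and Cxcl10 (12.1 ± 10.6), and Cxcl12 (6.46 ± 5.34) and Ccl20 (4.73 ± 4.42) were lowest. Each gene in this order differed from the next by less than the larger of their SDs, except Cxcl5 from Cxcl2. The highest and lowest libraries differed 48.4-fold for Cxcl2 and 27.8-fold for Ccl2, and 2.49-fold for Cxcl16, which had the narrowest range. Nearly all of the signal came from the main coding transcript for Ccl2 (97.9%), Ccl7 (100%), Cxcl1 (94.0%), Cxcl5 (95.2%) and Cxcl10 (94.6%). Cxcl16 was split between its main coding transcript (43.4%) and a transcript (47.4%) annotated as subject to nonsense-mediated decay.

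**Figure D1:**
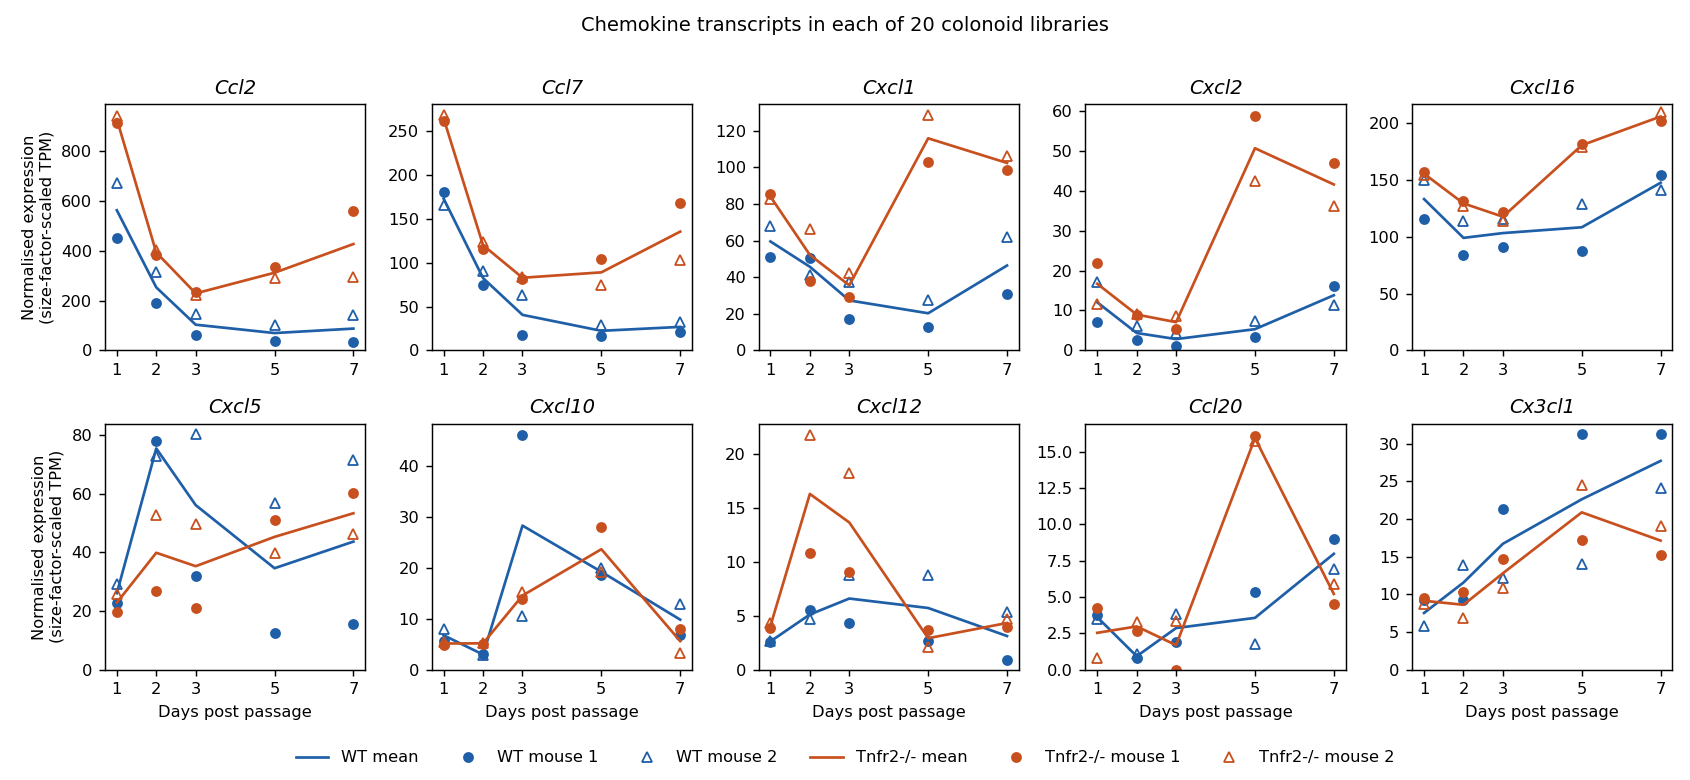
Normalised expression (linear axis from 0) of each chemokine against days post passage, with filled circles for mouse 1, open triangles for mouse 2 and lines for the mean of the 2 mice, in blue for WT and orange for Tnfr2-/-. At 5 and 7 DPP all 4 Tnfr2-/- points lie above all 4 WT points for Ccl2, Ccl7, Cxcl1, Cxcl2 and Cxcl16.

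To ask how loss of TNFR2 altered chemokine transcripts as the cultures matured, genotypes were compared over all days, at the early days (1, 2 and 3 DPP) and at the late days (5 and 7 DPP). Ccl2, Ccl7, Cxcl1, Cxcl2 and Cxcl16 were higher in Tnfr2-/- cultures over all days and at the late days. At the late days the log2 differences of the first 4 lay between 1.88 and 2.43 and that of Cxcl16 was 0.62. None of the 10 was called at the early days, and none was called lower in Tnfr2-/- cultures in any of these comparisons. The comparison over all days shares its libraries with the other 2. Those share no libraries with each other, but they come from the same 4 mice and from 1 fit with a shared estimate of the spread.

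The monocyte attractants Ccl2 and Ccl7 were separated by genotype on each day. Ccl2 stood at 451, 192, 61.7, 36.4 and 34.0 in WT mouse 1 on days 1, 2, 3, 5 and 7, and at 674, 314, 144, 103 and 141 in WT mouse 2. In Tnfr2-/- mouse 1 it stood at 914, 384, 235, 334 and 559, and in mouse 2 at 943, 402, 223, 290 and 295 on the same days. Both Tnfr2-/- libraries were therefore above both WT libraries on all 5 days, and WT mouse 1 was the lowest library on every day. The late mean was 78.5 ± 52.4 in WT and 369.5 ± 128 in Tnfr2-/- cultures (SD, n = 4 each), a log2 difference of 2.43 (SE 0.42, limma adjusted p 0.00557), and over all days the difference was 1.51 (SE 0.30, adjusted p 0.00574). Ccl7 showed the same separation. In order of day, WT mouse 1 gave 180, 74.4, 17.4, 15.9 and 20.8 and WT mouse 2 gave 166, 90.5, 63.6, 28.7 and 32.8. Tnfr2-/- mouse 1 gave 261, 116, 81.9, 104 and 168, and mouse 2 gave 268, 124, 83.9, 74.2 and 103. Here too the genotypes did not overlap on any day. The late log2 difference was 2.14 (SE 0.32, adjusted p 0.00186) and the difference over all days was 1.34 (SE 0.24, adjusted p 0.00299). Without WT mouse 1 the Ccl2 difference was 1.56 at the late days (adjusted p 0.0103) and 0.91 over all days (adjusted p 0.0201). Of all genes tested, 0.997% had both Tnfr2-/- libraries above both WT libraries on each of the 5 days.

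Among the neutrophil attractants, Cxcl1 and Cxcl2 differed at the late days and Cxcl5 did not pass the test. Cxcl1 was 51.2, 50.4, 17.2, 12.9 and 30.8 in WT mouse 1 in order of day, and 67.9, 41.0, 37.4, 27.7 and 61.9 in WT mouse 2. In Tnfr2-/- cultures it was 85.2, 38.0, 29.0, 103 and 98.8 in mouse 1 and 82.9, 66.3, 42.1, 129 and 106 in mouse 2. The genotypes overlapped on days 2 and 3 and were apart on days 1, 5 and 7. The late difference was 1.88 (SE 0.30, adjusted p 0.00317) and that over all days was 0.97 (SE 0.26, adjusted p 0.0332), and the second call was lost in 12 of 24 fits that each left out 1 library or 1 mouse (adjusted p up to 0.307). Cxcl2 was at 6.98, 2.57, 1.21, 3.23 and 16.1 in WT mouse 1 and at 17.1, 6.12, 4.43, 7.38 and 11.5 in WT mouse 2. It was at 21.8, 8.90, 5.43, 58.7 and 47.0 in Tnfr2-/- mouse 1 and at 11.5, 9.04, 8.69, 42.5 and 36.1 in mouse 2. On day 5 the Tnfr2-/- libraries were thus far above both WT libraries, and the genotypes overlapped on day 1 alone. A gap on a single day sets only 2 libraries against 2, and its share over all genes was not counted. On single days limma called Cxcl1 and Cxcl2 at 5 DPP only. Cxcl2 differed by 2.31 at the late days (SE 0.37, adjusted p 0.00318) and by 1.46 over all days (SE 0.29, adjusted p 0.00631). Cxcl5 ranged from 12.4 to 80.4 in WT (n = 10) and from 19.8 to 60.2 in Tnfr2-/- libraries (n = 10), with wide overlap. Its late difference was 0.68 (SE 0.51, adjusted p 0.465) and its early difference was -0.60 (SE 0.41, adjusted p 0.604). The late value of Cxcl5 rested on which WT mouse was used: it was -0.38 without WT mouse 1, and 1.73 and called without WT mouse 2 (adjusted p 0.0183). On days 5 and 7 the 2 WT mice stood apart in Cxcl5, at 12.4 and 15.7 in mouse 1 and at 56.8 and 71.6 in mouse 2.

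Cxcl16, the membrane-anchored ligand of Cxcr6, showed the smallest of the called differences. It measured 116, 84.3, 91.2, 87.6 and 154 in WT mouse 1 and 150, 114, 115, 129 and 141 in WT mouse 2. It measured 157, 131, 122, 182 and 202 in Tnfr2-/- mouse 1 and 154, 127, 114, 179 and 210 in mouse 2. The 2 Tnfr2-/- mice were close to each other on each day, and day 3 was the 1 day on which the genotypes overlapped. Limma called Cxcl16 on no single day, and the share of all genes with such gaps was not counted. The late difference was 0.62 (SE 0.14, adjusted p 0.0193), and the difference over all days was 0.41 (SE 0.09, adjusted p 0.0108), or 0.26 without WT mouse 1 (adjusted p 0.0958). The late call of Cxcl16 was lost without any 1 of the 4 late Tnfr2-/- libraries, without the day 5 library of WT mouse 1 or without either Tnfr2-/- mouse (adjusted p up to 0.336). Cx3cl1, the other anchored chemokine, was not called in either direction: its late mean was 25.2 ± 8.20 in WT and 19.0 ± 3.99 in Tnfr2-/- cultures (SD, n = 4 each), a difference of -0.34 (SE 0.27, adjusted p 0.492) that was 0.03 without WT mouse 1 and -0.71 without WT mouse 2 (adjusted p 0.0769).

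The remaining 3 genes were not called between genotypes in these comparisons. Cxcl10 ranged from 2.89 to 46.2 in WT and from 3.33 to 28.1 in Tnfr2-/- libraries, and its highest value was WT mouse 1 on day 3, where the other 3 libraries of that day lay between 10.5 and 15.2. Cxcl12 was highest in Tnfr2-/- mouse 2 on days 2 and 3 (21.8 and 18.3), followed by Tnfr2-/- mouse 1 (10.9 and 9.04), against 4.38 to 8.84 in WT. Its early difference of 0.95 (SE 0.33) had an adjusted p of 0.229. Ccl20 was at 16.1 and 15.8 in the 2 Tnfr2-/- libraries of day 5, against 5.37 and 1.77 in WT, and on day 7 the order turned, with 4.50 and 5.93 in Tnfr2-/- against 9.01 and 6.94 in WT. The day 5 difference of Ccl20 was 2.01 (SE 0.62, adjusted p 0.133).

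In counts, 5 of the 10 chemokines were called over all days, all higher in Tnfr2-/- cultures, against 7.6% of all genes tested called in either direction and 4.51% called higher. At the late days 5 of 10 were called, all higher, against 6.45% of all genes in either direction and 3.8% called higher. As the 10 were chosen with earlier results of these data known, these counts describe them and do not test the family. The split of calls over all genes depended on the scaling: with libraries rescaled to equal sums it went from 611 higher and 418 lower to 426 and 724 over all days, and from 515 and 358 to 419 and 547 at the late days, while the same 5 chemokines were called higher in both comparisons. The same 5 genes had all 4 late Tnfr2-/- libraries above all 4 late WT libraries, which 5.35% of all genes did. At the early days 0 of 10 were called by limma, against 1.2% of all genes, although 5 had an unadjusted p under 0.05. The median log2 difference of the 10 was 0.71 at the late days, when that of all genes was -0.05, and 0.32 at the early days. The late effect exceeded the early one by 1.53 for Ccl2, 1.33 for Ccl7, 1.51 for Cxcl1, 1.43 for Cxcl2 and 0.34 for Cxcl16, but this difference between effects was called for 0 of 10 (adjusted p 0.162 to 0.478 for these 5, and 4 of 10 with an unadjusted p under 0.05), against 0.148% of all genes. A genotype effect that belonged to the late days alone was therefore not shown.

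**Figure D2:**
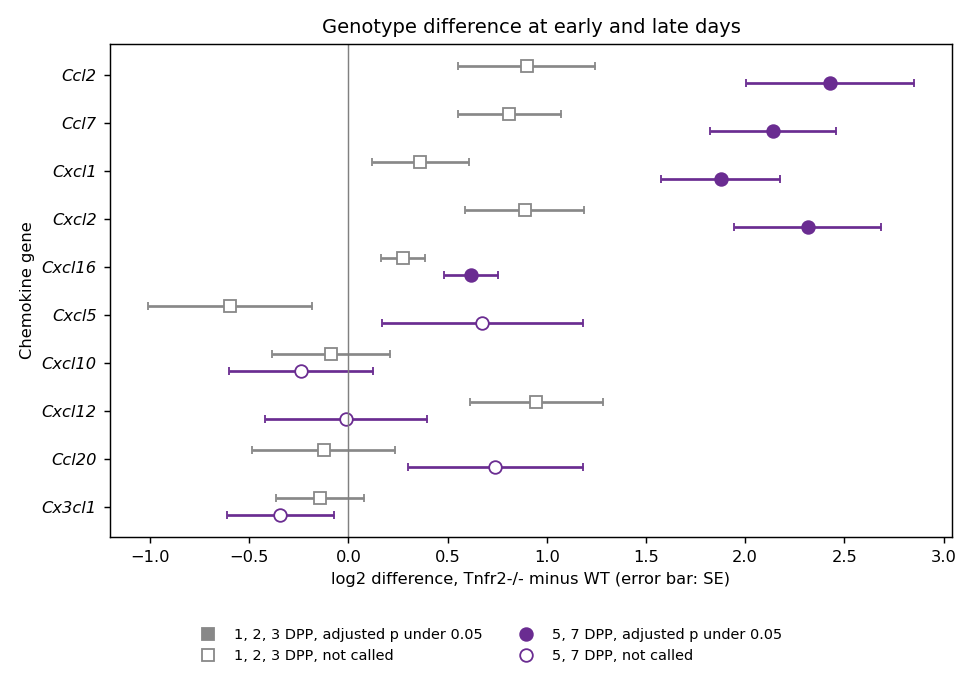
The log2 difference between Tnfr2-/- and WT cultures (horizontal axis, on the log2(value + 1) scale) for each chemokine, with grey squares for 1, 2 and 3 DPP and purple circles for 5 and 7 DPP. Bars are SE, filled symbols have an adjusted p under 0.05, and the 5 filled circles are Ccl2, Ccl7, Cxcl1, Cxcl2 and Cxcl16.

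These p-values treat the libraries of a mouse on different days as separate. On the means of 2 mice against 2, limma called 0 of 10 over all days and 0 of 10 at the late days, although 5 had an unadjusted p under 0.05 in each. Few or none of all genes were called on mouse means either, as counted in the closing section, so these counts do not set the chemokines apart. The late adjusted p were then 0.283 for Ccl2, 0.204 for Ccl7, 0.233 for Cxcl1, 0.141 for Cxcl2 and 0.233 for Cxcl16, at the same log2 differences. With the mouse as a correlated replicate block, Cxcl1 was no longer called over all days (adjusted p 0.0733), and the late calls stood at 5. Without WT mouse 1 the late count was 5 and the count over all days was 2, and without WT mouse 2 both counts were 6, with Cxcl5 added at the late days and Cxcl12 over all days (0.95, adjusted p 0.0254). Without either Tnfr2-/- mouse, when the spread within a group could come from WT mice alone, both counts were 0. The sum of the fibroblast markers was 1352 to 4387 in the late WT libraries and 3847 to 8916 in the late Tnfr2-/- libraries, which overlap. At the late days 2 of 12 were called, against 6.45% of all genes, both higher (Dcn, a collagen-binding proteoglycan, 2.74, and the intermediate filament gene Vim, 1.69). The median difference over the list was 0.69, and Dpt had a late median level of 26.1 in Tnfr2-/- against 28.7 in WT libraries. Within WT, the sum was 1352 to 4467 in mouse 1 and 3644 to 4637 in mouse 2. The part of fibroblasts in the chemokine result was not tested.

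By single days, with 2 libraries against 2, the calls fell on 5 and 7 DPP. At 1, 2 and 3 DPP limma called 0 of 10 each, against 0.0739%, 0.096% and 0.155% of all genes, with an unadjusted p under 0.05 for 0, 1 and 2 of the 10. At 5 DPP 3 of 10 were called higher in Tnfr2-/- cultures, against 1.65% of all genes in either direction: Cxcl2 by 3.10 (SE 0.52, adjusted p 0.00997), Cxcl1 by 2.54 (SE 0.42, adjusted p 0.00928) and Ccl7 by 1.99 (SE 0.45, adjusted p 0.0435). At 7 DPP 1 of 10 was called, Ccl7 at 2.29 (SE 0.45, adjusted p 0.0347), against 0.82% of all genes. Ccl2 differed by 2.33 on day 5 and by 2.53 on day 7 with adjusted p of 0.0734 and 0.0739, and with the mouse as a correlated replicate block it passed on both days (adjusted p 0.0445 and 0.0424). Leaving out 1 library or 1 mouse moved the Ccl2 difference between 1.59 and 3.06 on day 5 and between 1.52 and 3.54 on day 7, lowest without the WT mouse 1 library of that day and highest without that of WT mouse 2. Leaving out 1 library or 1 mouse in turn ended the Ccl7 call in 18 of 24 fits at 5 DPP and in 15 of 24 at 7 DPP. The 5 DPP call of Ccl7 was also lost with libraries rescaled to equal sums (adjusted p 0.0623) and with no filter on low values (0.0742). At 5 DPP the count was 0 without either Tnfr2-/- library of that day, without the WT mouse 1 library of that day or without either Tnfr2-/- mouse.

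The chemokines were then followed with time in culture within each genotype. From the early to the late days in WT, Ccl2 fell by 1.83 (SE 0.39, adjusted p 0.0056) and Ccl7 fell by 1.69 (SE 0.29, adjusted p 0.00172), while Cx3cl1 rose by 1.05 (SE 0.25, adjusted p 0.0103). These were 3 of 10, against 20.1% of all genes called. In Tnfr2-/- cultures 6 of 10 were called, against 20.3% of all genes: Cxcl2 rose by 2.08 (SE 0.34, adjusted p 0.00106), Ccl20 by 1.79 (SE 0.40, adjusted p 0.0074), Cxcl1 by 1.02 (SE 0.27, adjusted p 0.0173), Cx3cl1 by 0.85 (SE 0.25, adjusted p 0.0272) and Cxcl16 by 0.53 (SE 0.13, adjusted p 0.00967). Cxcl12 fell by 1.21 (SE 0.37, adjusted p 0.0349). Ccl2 and Ccl7 gave -0.30 and -0.36 in Tnfr2-/- cultures and were not called (adjusted p 0.645 and 0.433). The plot of early to late changes shows the pair to the left of 0 in WT and near 0 in Tnfr2-/- cultures, but, as stated above, the difference between the genotypes in this change was not called for any of the 10. On mouse means the WT count was 3 and the Tnfr2-/- count was 4, with Cxcl12 and Cx3cl1 not passing (adjusted p 0.0894 and 0.0658). In Tnfr2-/- cultures the Cxcl12 call was also lost in 10 and the Cx3cl1 call in 8 of the 24 fits that left out 1 library or 1 mouse, and the WT call of Cx3cl1 in 5. Without Tnfr2-/- mouse 2 the Tnfr2-/- values were 0.47 for Cx3cl1 and -0.78 for Cxcl12. Without either Tnfr2-/- mouse the counts were 1 in WT and 0 in Tnfr2-/- cultures.

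**Figure D3:**
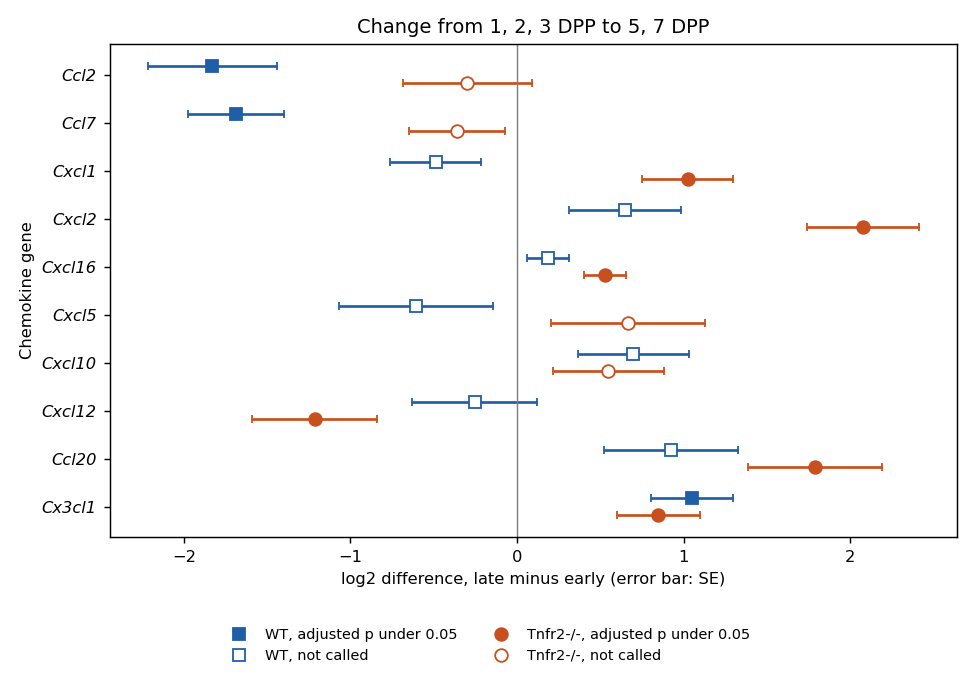
The log2 difference between the late days (5 and 7 DPP) and the early days (1, 2 and 3 DPP) for each chemokine, with blue squares for WT and orange circles for Tnfr2-/- cultures. Bars are SE and filled symbols have an adjusted p under 0.05, which were Ccl2, Ccl7 and Cx3cl1 in WT and Cxcl1, Cxcl2, Cxcl16, Cxcl12, Ccl20 and Cx3cl1 in Tnfr2-/- cultures.

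Over both genotypes, 6 of 10 genes differed between days (Ccl2, Ccl7, Cxcl2, Cxcl10, Cxcl16 and Cx3cl1), against 28% of all genes. Ccl2 and Ccl7 were highest on the first day after passage in all 4 mice. Cxcl10 was called between days (adjusted p 8.15e-04), at 2.89 to 5.31 on day 2 in all 4 mice, 18.6 to 28.1 on day 5 and 3.33 to 12.9 on day 7. Its early to late difference was 0.70 in WT (adjusted p 0.159) and 0.55 in Tnfr2-/- cultures (adjusted p 0.279), and without the day 3 library of WT mouse 1 the WT value was 1.04 and was called (adjusted p 0.0107). Cx3cl1 was 5.79 to 9.58 on day 1 and 15.2 to 31.4 on day 7 (adjusted p 0.00278). Cxcl12 missed the threshold at an adjusted p of 0.0501 and passed with the mouse as a correlated replicate block (0.0383).

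The neighbours Ccl2 and Ccl7 varied together, which did not extend to every neighbouring pair. Over the 20 libraries, which come from 4 mice and share day and genotype, Ccl2 and Ccl7 had a Pearson r of 0.972 on the log2 scale, the highest of all 45 pairs. The ratio of Ccl2 to Ccl7 had a median of 3.02 in WT (range 1.63 to 4.30, n = 10) and of 3.28 in Tnfr2-/- libraries (range 2.66 to 3.91, n = 10). Cxcl1 and Cxcl2 had an r of 0.82, and their ratio was less constant, at 1.91 to 19.6 in WT and 1.76 to 7.34 in Tnfr2-/- libraries. Cxcl5 had an r of 0.332 with Cxcl1 and of 0.0601 with Cxcl2. Cxcl2 was closer to Cxcl16 on chromosome 11 (r 0.947) than to its neighbour Cxcl1. Ccl7 and Cx3cl1 had the most negative value, -0.74. Among all 13538 other genes, the profile most like that of Ccl2 was Ccl7 and the reverse. The genes most like each of the others were Has2 for Cxcl1 (r 0.926), Trim15 for Cxcl2 (0.956), Inhba for Cxcl16 (0.96), Ifit3 for Cxcl10 (0.851), Cd302 for Cxcl5 (0.835), Psph for Cxcl12 (0.842), Tab2 for Ccl20 (0.843) and Trim31 for Cx3cl1 (0.92). F3, the gene of tissue factor, was among the 3 most similar genes of both Cxcl2 (0.948) and Cxcl16 (0.956).

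**Figure D4:**
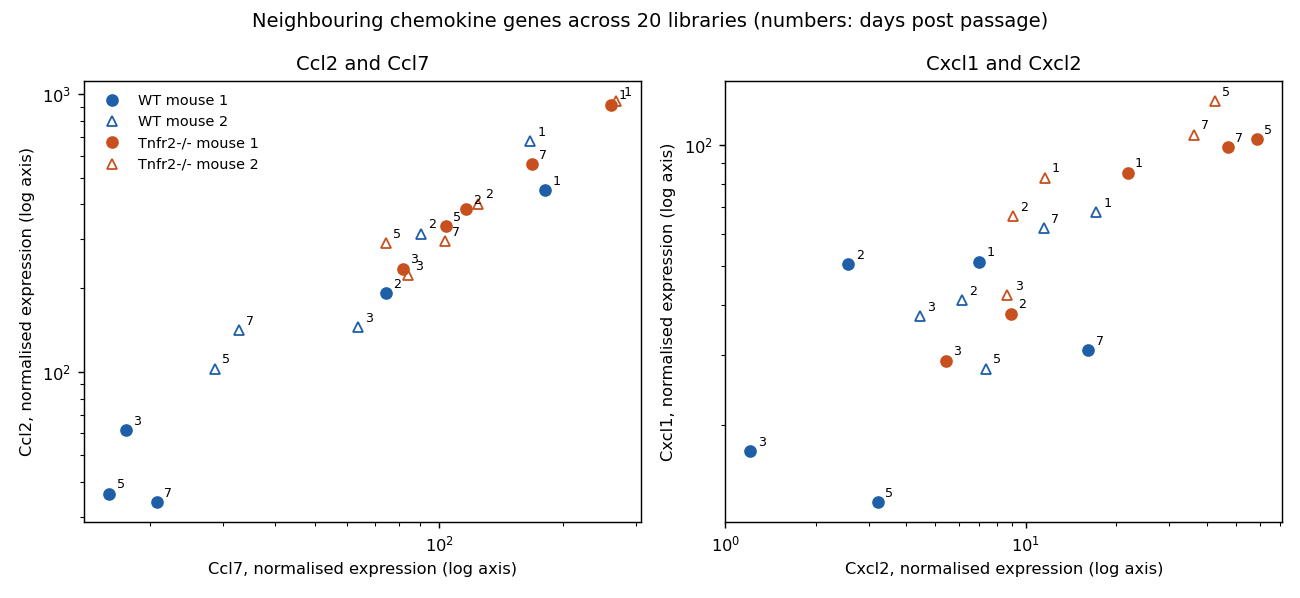
Ccl2 against Ccl7 (left) and Cxcl1 against Cxcl2 (right) in 20 libraries, as normalised expression on log axes, with blue for WT, orange for Tnfr2-/-, filled circles for mouse 1, open triangles for mouse 2 and the day post passage beside each point. Points of the left panel fall along 1 line (r 0.972), with both Tnfr2-/- libraries of day 1 at the upper end, and those of the right panel scatter more (r 0.82).

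The rest of the chemokine system was described from lists of other ligands, receptors, processing genes and inducing cytokines. Beside the counts below, 7.6% of all genes tested were called over all days and 6.45% at the late days, in either direction. From early to late days 20.1% were called in WT and 20.3% in Tnfr2-/- cultures. Of 29 other chemokines, 11 were tested, 7 were listed at 0 in every library, and the highest were Ccl8 (mean 81.7), Ccl11 (27.0), Ccl28 (10.8) and Ccl25 (9.3). At the late days 2 of these 11 were called, in opposite directions, with a median of -0.50. Cxcl3, a further Cxcr2 ligand of the chromosome 5 cluster, was 3.00 to 6.84 in the 4 late Tnfr2-/- libraries against 0 to 1.46 in WT (log2 difference 1.57, SE 0.30, adjusted p 0.00937). Its mean of 1.64 over the 20 libraries was near the filter of 1. By group the mean was 4.35 in late Tnfr2-/-, 0.608 in early Tnfr2-/-, 1.41 in early WT and 0.841 in late WT libraries. Ccl28, a mucosal chemokine of epithelial cells, was lower, at 4.47 to 7.35 against 15.2 to 62.4 in WT (-2.15, SE 0.52, adjusted p 0.0279). Over all days 1 of 11 was called, Ccl28 (-1.48, adjusted p 0.012). From early to late days Ccl28, Ccl5 and Pf4 rose in WT and Ccl5 and Cxcl3 in Tnfr2-/- cultures.

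Most of the listed receptors were below the level tested. Of 22 receptors 3 were tested (Cxcr4, Ackr3 and Ackr4), and Cxcr1, Cxcr3, Cxcr5, Ccr6 and Ccr8 were listed at 0 in every library. Mean levels of the leukocyte receptors Cxcr2, Ccr2, Cxcr6 and Cx3cr1 were 0.746, 0.0394, 0.0453 and 0.0266. At the late days 2 of 3 were called, both higher in Tnfr2-/- cultures, with a median of 1.37, the value of Cxcr4. As Cxcr4 passed the filter only through the late Tnfr2-/- libraries, this count and median are not a test of the receptors. Ackr4, a scavenging receptor for Ccl19, Ccl21 and Ccl25, was 67.1 to 148 in Tnfr2-/- and 1.91 to 31.9 in WT libraries (3.33, SE 0.36, adjusted p 2.00e-04), and it was also called over all days (1.98, adjusted p 0.00356). Cxcr4, the signalling receptor of Cxcl12, was 2.09 to 3.76 against 0 to 1.31 (1.37, SE 0.30, adjusted p 0.0169). Its mean over the 20 libraries was 1.12, just above the filter of 1. It reached that only through the late Tnfr2-/- libraries (mean 2.78), against 0.706 in early Tnfr2-/-, 0.813 in early WT and 0.538 in late WT libraries. Its call is therefore a description of values that also decided whether it was tested. Ackr3, which scavenges Cxcl12, had a mean of 5.50 over the 20 libraries (0.193 to 20.8), close to that of Cxcl12 itself, and was not called (0.48, adjusted p 0.638).

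Of 7 genes that process chemokines or their mRNA, 6 were tested and 2 were called at the late days, both higher, with a median of 0.58. Adam10, the sheddase of Cxcl16 and Cx3cl1, was 121 to 140 in late Tnfr2-/- libraries against 85.7 to 118 in WT (0.39, SE 0.10, adjusted p 0.0276, or 0.0652 with libraries rescaled to equal sums), and the protease gene Mmp9 differed by 2.11 (SE 0.51, adjusted p 0.0277). Adam17, the other sheddase, gave -0.10 (adjusted p 0.772). Of 16 cytokines that can induce chemokines, 5 were tested, 5 were listed at 0 throughout, and 3 were called at the late days, all higher in Tnfr2-/- cultures, with a median of 1.18. Il6 was 24.4 to 44.5 in late Tnfr2-/- and 0 to 3.95 in late WT libraries, Il1a was 29.6 to 40.7 against 3.24 to 14.3, and Tnf was 28.3 to 37.0 against 7.10 to 22.3. The log2 differences were 4.58 (SE 0.42, adjusted p 5.53e-05), 1.85 (SE 0.38, adjusted p 0.0128) and 1.17 (SE 0.29, adjusted p 0.0302). Over all days Il6 (2.55, adjusted p 0.00414) and Il1a (1.01, adjusted p 0.0357) were called. The late difference of Il6 had an adjusted p of 0.141 on mouse means.

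**Figure D5:**
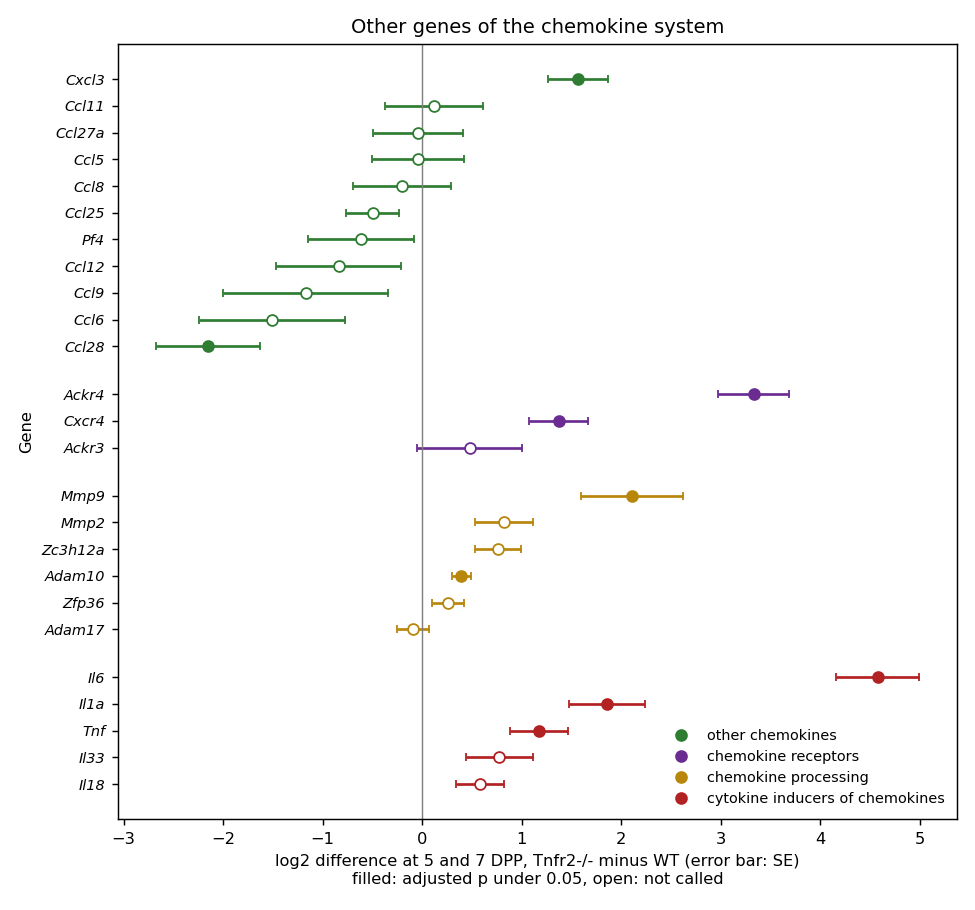
The log2 difference between Tnfr2-/- and WT cultures at 5 and 7 DPP for the tested genes of 4 lists, with green for other chemokines, purple for receptors, ochre for processing genes and red for inducing cytokines. Bars are SE, filled symbols have an adjusted p under 0.05, and Il6 (4.58) and Ackr4 (3.33) lie farthest to the right.

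Genes of NF-kappaB subunits, inhibitors and targets were also examined, beside 7.6% of all genes called over all days and 6.45% at the late days. All 12 listed were tested and 5 were called at the late days, all higher in Tnfr2-/- cultures (Nfkbiz 0.69, Nfkb2 0.49, Birc3 0.92, Tnfaip3 0.88 and Nfkbia 0.81), with a median of 0.62. Their sum was 604 to 761 in late Tnfr2-/- and 343 to 518 in late WT libraries. Over all days 4 of 12 were called, and 2 of these calls were lost with libraries rescaled to equal sums (Birc3, adjusted p 0.0655, and Nfkbiz, 0.0904). Of 20 interferon-stimulated genes, 0 were called by limma at the late days (1 with an unadjusted p under 0.05, median -0.09) and 1, Bst2, over all days (lost with equal sums, adjusted p 0.0605). Of the same 20, 13 rose from early to late days in WT and 11 in Tnfr2-/- cultures, against 20.1% and 20.3% of all genes called in either direction. Of 9 tested goblet and deep secretory markers, 2 were called lower over all days (Fcgbp and Spdef) and 0 at the late days (5 with an unadjusted p under 0.05), and of 8 absorptive colonocyte markers 1 was called lower in both (Car1, -4.73 at the late days). Both lists also differed between the 2 WT mice, as given with the comparison of mice. Of the 4 tested immune markers, Cd68 and Csf1r were called higher over all days (1.13 and 0.76) and Cd68 at the late days (1.35). Of 10 epithelial markers 3 were called higher over all days (Cdh1, Epcam and Elf3) and 0 at the late days (4 with an unadjusted p under 0.05), and with equal sums Cdh1 (0.0642) and Elf3 (0.0558) no longer passed over all days. Of the 2 tested endothelial markers limma called 0 in either comparison, and 0 had an unadjusted p under 0.05.

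Mice of the same genotype were compared over the 5 days as a measure of spread. Between the 2 WT mice 0 of 10 chemokines were called by limma, against 1.29% of all genes, but 7 had an unadjusted p under 0.05, and Ccl2 in mouse 1 lay 1.20 below mouse 2 (SE 0.21, adjusted p 0.0504). Cxcl5 lay 1.16 below (SE 0.35, adjusted p 0.145). Between the 2 Tnfr2-/- mice 0 of 10 were called, against 0.0222% of all genes, 1 had an unadjusted p under 0.05, and the differences of the 10 ranged from -0.36 to 0.26. The WT mice also differed in cell type markers. The goblet and deep secretory sum was 216 to 2492 in WT mouse 1 and 10.8 to 1006 in WT mouse 2, 4 of 9 of these markers were called higher in mouse 1 (9 with an unadjusted p under 0.05), and their median log2 difference of 3.40 was larger than the median of -1.89 between genotypes over all days. Of 8 absorptive markers 2 were called higher in WT mouse 1, and of 12 fibroblast markers 1 was called lower. Between the 2 Tnfr2-/- mice limma called 0 goblet and 0 absorptive markers, and 0 of either had an unadjusted p under 0.05. The fibroblast sum was 3307 to 8189 (median 3836) in Tnfr2-/- mouse 1 and 4719 to 8916 (median 4948) in Tnfr2-/- mouse 2.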

How the data were processed

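RNA was extracted from 20 colonoid libraries and sequenced. Per the submitters' processing notes and the study's methods, the authors processed reads with CASAVA, quantified transcripts by pseudoalignment with kallisto (mm10) and compared them with sleuth. The deposited signal is TPM per transcript divided by a size factor per library. The deposited table also holds the authors' own test columns, which were not used. Reads shared by similar transcripts are divided by a model, so near-identical genes can exchange reads.

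Of 113974 lines, 781 repeated lines were dropped, and 199 transcripts without a gene (at most 0.0989% of a library) were left out. Values were summed per symbol, and libraries summed to 900655 to 1111080. Genes with a mean of at least 1 (13539) were analysed as log2(value + 1), which understates changes of low genes. Linear models were fitted with limma 3.58.1 (R 4.3.3, mean-variance trend), with p-values adjusted over all genes by Benjamini-Hochberg and a threshold of 0.05. The effect over all days came from day plus genotype, and other contrasts from a fit of 10 group means. The replicate number was taken to name the mouse within a genotype. Deviations correlated at 0.0997 to 0.307 across days in WT and at -0.0511 to 0.08 in Tnfr2-/- cultures, and same-numbered mice of the 2 genotypes at -0.0536 to 0.0761. In Tnfr2-/- cultures the correlations thus did not show that a number follows 1 mouse. As the range between genotypes was much like that within Tnfr2-/- cultures, the check cannot decide whether numbers paired genotypes. Alternatives were another pseudocount, filters, scalings, mouse blocks, mouse means and leaving out libraries. The 10 members and 12 gene lists were chosen with earlier results of these data known. One listed gene is not reported here and was left out of its list. Named genes were all members, called list genes (at most the 6 of lowest adjusted p per list), the 4 highest other chemokines, the members' receptors and, for likeness, the 3 highest Pearson r. Adam17, Ptprc, Cpa3, Nkg7, Ly6g, Cxcr5 and Ccr8 fall outside this rule and were chosen after their values were seen. The fit was tested on simulated data. Coordinates are from GENCODE M21 and promoters from RefSeq.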

Additional observations from a re-analysis of the deposited data

Results flagged for a closer look

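The genotype effect differed between the late and the early days, by limma's test of that difference, in 3 genes named above that are not among the 10 chemokines. The late log2 difference between Tnfr2-/- and WT cultures exceeded the early one by 3.38 for Il6 (adjusted p 0.0403), by 2.25 for Cxcl3 (adjusted p 0.0471) and by 1.81 for the fibroblast marker Dcn (adjusted p 0.0403). On mouse means none of the 3 passed (0.146, 0.198 and 0.0921). In 40 sets of a chemokine, a genotype and the early or late days, Dixon's criterion at the 95% level, which chance meets in about 1 of 20 sets, set apart 0 libraries on the log2 scale used in the tests and 4 on the scale of the normalised values. These were Cxcl10 in WT mouse 1 on day 3 (46.2, next highest 10.5), Cxcl2 on day 1 in WT mouse 2 (17.1, next 6.98) and in Tnfr2-/- mouse 1 (21.8, next 11.5), and Ccl2 in Tnfr2-/- mouse 1 on day 7 (559, next 334).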

How the results depend on the processing

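All 5 late calls were kept, at a count of 5, under a pseudocount of 0.1, no filter, a filter at 5, quantile normalisation, equal sums and both replicate block fits, and no called difference changed sign in any alternative run. On mouse means the number of chemokines called was 0 both over all days and at the late days. At 5 DPP it was 5 with the replicate block by number. At 7 DPP it was 2 with either replicate block and 0 with no filter on low values. The interaction gave 1 (Cxcl1, adjusted p 0.0338) with the replicate block by number, although numbers were not shown to pair genotypes, and 0 on mouse means (Cxcl1 0.169) and with the mouse as a correlated replicate block (0.0924). Between the WT mice it was 1 (Ccl2) with a filter at 5 and under quantile normalisation. No other count of chemokines moved by more than 1.5 times outside the leave-one-out fits. Leaving out 1 library or 1 mouse in turn, counts ranged from 0 to 6 over all days and at the late days, 0 to 4 at the early days, 0 to 2 at 3 DPP, 0 to 5 at 5 DPP, 0 to 3 at 7 DPP, 0 to 2 for the interaction, 1 to 5 for late against early in WT, 0 to 6 in Tnfr2-/- cultures and 2 to 8 for any difference between days; a mouse left out leaves 1 library per group, assumed to vary like the other genotype. Leaving out 1 library kept the late count at 4 or 5 (4 where Cxcl16 was lost).

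Counts over all genes that moved by more than 1.5 times were as follows. On mouse means 7 genes were called over all days (1029 in the fit reported), 3 at the early days (162), 0 at the late days (873), 1 for the interaction (20), 1728 late against early in WT (2724) and 1790 in Tnfr2-/- cultures (2755). With the mouse as a correlated replicate block they were 545 over all days and 47 for the interaction. With the replicate block by number they were 50 at 3 DPP (21), 340 at 5 DPP (223), 299 at 7 DPP (111), 280 at the early days and 96 for the interaction. Without a filter they were 41 at 1 DPP (10), 34 at 2 DPP (13), 55 for the interaction and 0 between WT mice (175). A pseudocount of 0.1 gave 72 at 7 DPP and 10 for the interaction, and quantile normalisation gave 35 for the interaction. A filter at 5 gave 324 between WT mice and 8 between Tnfr2-/- mice (3). With equal sums, genes called lower numbered 724 over all days (418) and 547 at the late days (358), and of the calls in the gene lists 5 of 21 over all days (Birc3, Nfkbiz, Bst2, Cdh1 and Elf3, adjusted p 0.0558 to 0.0904) and 1 of 18 at the late days (Adam10, 0.0652) were lost, with 0 changes of sign. The cause of these changes was not tested. The study's methods state an approximate read depth per sample, but the depth of each library is not in the table. Counting error at a few units, as for Ccl20, Cxcl12 and Cxcl3, was not estimated.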
